A study of Mus musculus with 10 samples.

Results

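Heat shock protein (HSP), J-domain (DNAJ) and chaperonin (CCT) genes were examined in microglia, the macrophages that live in the brain, in primary culture from mice. The genes were the protein-coding rows of the deposited table whose names begin with Hsp, Dnaj or Cct in the patterns of these families, together with Tcp1, which encodes the CCT subunit named for t-complex protein. The rule takes no pseudogenes (9 rows left out, the highest at 13.0 FPKM) and leaves out Hspa5, Hsp90b1, Dnajb9, Dnajb11 and Dnajc3 of the endoplasmic reticulum. It found 77 of the 28247 genes in the table, of which 67 passed the filter on low counts and were tested. In 5 libraries, called mimic libraries here, wild-type primary microglia had been given amyloid-β oligomers and then a miR-378a-3p mimic, a synthetic copy of that microRNA. In the other 5, the control libraries, wild-type primary microglia had been given the same oligomers and then a negative control mimic. All 10 libraries therefore carry the oligomers, and none shows untreated cells. The labels do not state whether each library is its own culture or animal, so p-values reflect only how these libraries vary, which may be technical.

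Chaperones bind proteins that are not folded and release them in cycles driven by ATP. In the HSP70 system a J-domain protein brings the client and starts ATP hydrolysis, and an HSP110 protein or another exchange factor then removes ADP so that the client is let go. HSP90 takes over clients such as kinases and steroid receptors at a later stage, CCT encloses actin, tubulin and other proteins in a double ring, and small HSPs hold unfolded proteins without using ATP. Heat shock factor 1 switches on many of these genes through heat shock elements, which are inverted repeats of GAA. In microglia, chaperones are known for their part in handling engulfed and misfolded protein.

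Levels are given as FPKM, the authors' fragments per kilobase of gene scaled to the library, which allows genes to be compared with each other. Fold changes are log2 of mimic over control from edgeR on the deposited counts, with the standard error after the sign ±, and a gene was called where the adjusted p (Benjamini-Hochberg) was under 0.05 over all 15916 genes tested. The edgeR scaling (TMM) and that of FPKM differ, so a fold change can be lower than the ratio of the FPKM means: with library totals in place of TMM the median log2 fold change of all genes moved to 0.075, against −0.0021 with TMM. The libraries held 48707985 to 65069571 counts.

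The label of cytosolic chaperones was checked against the annotation in the authors' table. Cytosol or cytoplasm was named for 44 of the 77 genes, a part of the mitochondrion for 17 and the endoplasmic reticulum for 9, so the genes are called here by family and not by compartment. Of 15 microglia and macrophage markers, 12 averaged at least 1 FPKM over the 10 libraries, and P2ry12, Tmem119 and C1qa were below that. In the mimic libraries alone Cx3cr1 and Aif1 were also below 1 FPKM. Cx3cr1 averaged 0.475 FPKM in mimic and 28.6 FPKM in control libraries, and Aif1 0.681 FPKM in mimic and 2.00 FPKM in control libraries. P2ry12 stood at 0.257 FPKM in mimic and 1.49 FPKM in control libraries, and Tmem119 at 0.325 FPKM in mimic and 0.695 FPKM in control libraries. Markers of astrocytes, oligodendrocytes, neurons, vessels and fibroblasts each averaged under 1 FPKM, and Rbfox3 of neurons was at 0 in every library. The 15 microglia markers summed to 1412 to 1467 FPKM in the mimic libraries and 2148 to 2425 FPKM in the control libraries, with 14 lower and 1 higher by edgeR, and the part of this shift in the chaperone results was not tested. In bulk RNA, fewer cells of a type and less RNA per cell cannot be told apart.

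Heat shock elements were looked for in the 250 bases before each RefSeq start (GRCm38.p6), as GAANNTTC or TTCNNGAA on either strand for 2 units and GAANNTTCNNGAA or TTCNNGAANNTTC for 3 units, where a match of 3 units also holds matches of 2. A gene was counted where at least 1 of its starts held a match. Of 63 chaperone genes in the promoter table, 17 (27.0%) held a match of 2 units and 3 (4.76%) one of 3 units, against 14.5% and 0.514% of all 27025 genes in that table. Counted by start, 19 of 82 chaperone starts (23.2%) held a match of 2 units, against 12.8% of all 32851 starts. The windows of the 13 tested genes with a match are shown because heat shock factor 1 is known to act through such letters. Each is 30 bases, 5′ to 3′ on the strand of the gene, with the matched letters in capitals. Cct2, Cct5, Dnaja1, Dnajb4, Hspb6 and Hspd1 have at least 1 other start with no match, and the window is from the start with one.
Hsph1 (chr5:149636351-149636380, minus strand): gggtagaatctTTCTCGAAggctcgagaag
Dnaja1 (chr4:40722333-40722362, plus strand): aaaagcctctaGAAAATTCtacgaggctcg
Dnajb6 (chr5:29735843-29735872, plus strand): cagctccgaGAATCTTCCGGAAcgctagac
Dnajb4 (chr3:152193846-152193875, minus strand): gttcgttcgttcgctgTTCTAGAAagtaca
Dnajc10 (chr2:80315273-80315302, plus strand): aacaattttatTTCTAGAAaactttaatta
Dnajc27 (chr12:4082350-4082379, plus strand): cacccatcggtGAAGATTCcaggaaaaaaa
Hspa1a (chr17:34972242-34972271, minus strand): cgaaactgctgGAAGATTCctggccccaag
Hspa1b (chr17:34959324-34959353, minus strand): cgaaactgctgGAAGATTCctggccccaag
Hspd1 (chr1:55088053-55088082, minus strand): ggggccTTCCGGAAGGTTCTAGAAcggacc
Hspe1 (chr1:55088053-55088082, plus strand): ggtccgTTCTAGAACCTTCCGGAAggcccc
Hspb6 (chr7:30553170-30553199, plus strand): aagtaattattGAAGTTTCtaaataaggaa
Cct2 (chr10:117063399-117063428, minus strand): ccccaagtgaaGAAGTTTCtagcaggacct
Cct5 (chr15:31601862-31601891, minus strand): acagcggccgaTTCCAGAAgctactctgcg

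Hspd1 and Hspe1 share 1 promoter and are transcribed away from each other, so their windows are the same bases read on opposite strands. Together with Dnajb6 they are the only 3 of these genes with a match of 3 units. Among the 13 tested genes with a match, 7 were higher in mimic libraries (Hsph1, Dnaja1, Dnajb6, Dnajc10, Hspa1b, Hspe1 and Cct2), 2 were lower (Hspb6 and Cct5) and 4 did not pass. Of the 40 tested genes whose promoters held no match, 15 were higher, 10 were lower and 15 did not pass. The called share was 69.2% with a match and 62.5% without one, and over all genes tested it was 63.2% (31.7% higher and 31.5% lower), so both shares were near the background. A match says only that these letters are in the window, and 14 of the 77 genes, Hsp90aa1 and Hspa8 among them, had no promoter in the table.

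In the mimic libraries 29 of the 67 tested chaperone genes were higher and 14 were lower, with 24 that did not pass. That was 43.3% higher and 20.9% lower, 64.2% in all, against the background of 31.7% higher and 31.5% lower, 63.2% in all. Their median log2 fold change was 0.11, against −0.0021 over all genes. With library totals in place of TMM the chaperone split was 38 higher and 10 lower, and with limma on log2(FPKM + 1) it was 39 and 9. The FPKM values of the 2 groups did not overlap for 31 genes with the mimic libraries above (46.3%, background 31.4%) and for 9 with them below (13.4%, background 20.8%), 40 in all (background 52.2%). Changes of at least 1.5-fold were fewer: 7 genes were higher (10.4%, background 11.7%), namely Hspa1b, Dnajc25, Dnajc9, Hsph1, Hspa4l, Dnaja1 and Hspbap1, and 4 were lower (5.97%, background 14.8%), namely Hspb7, Hspb6, Dnajc17 and Hspa9.

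**Figure D1:**
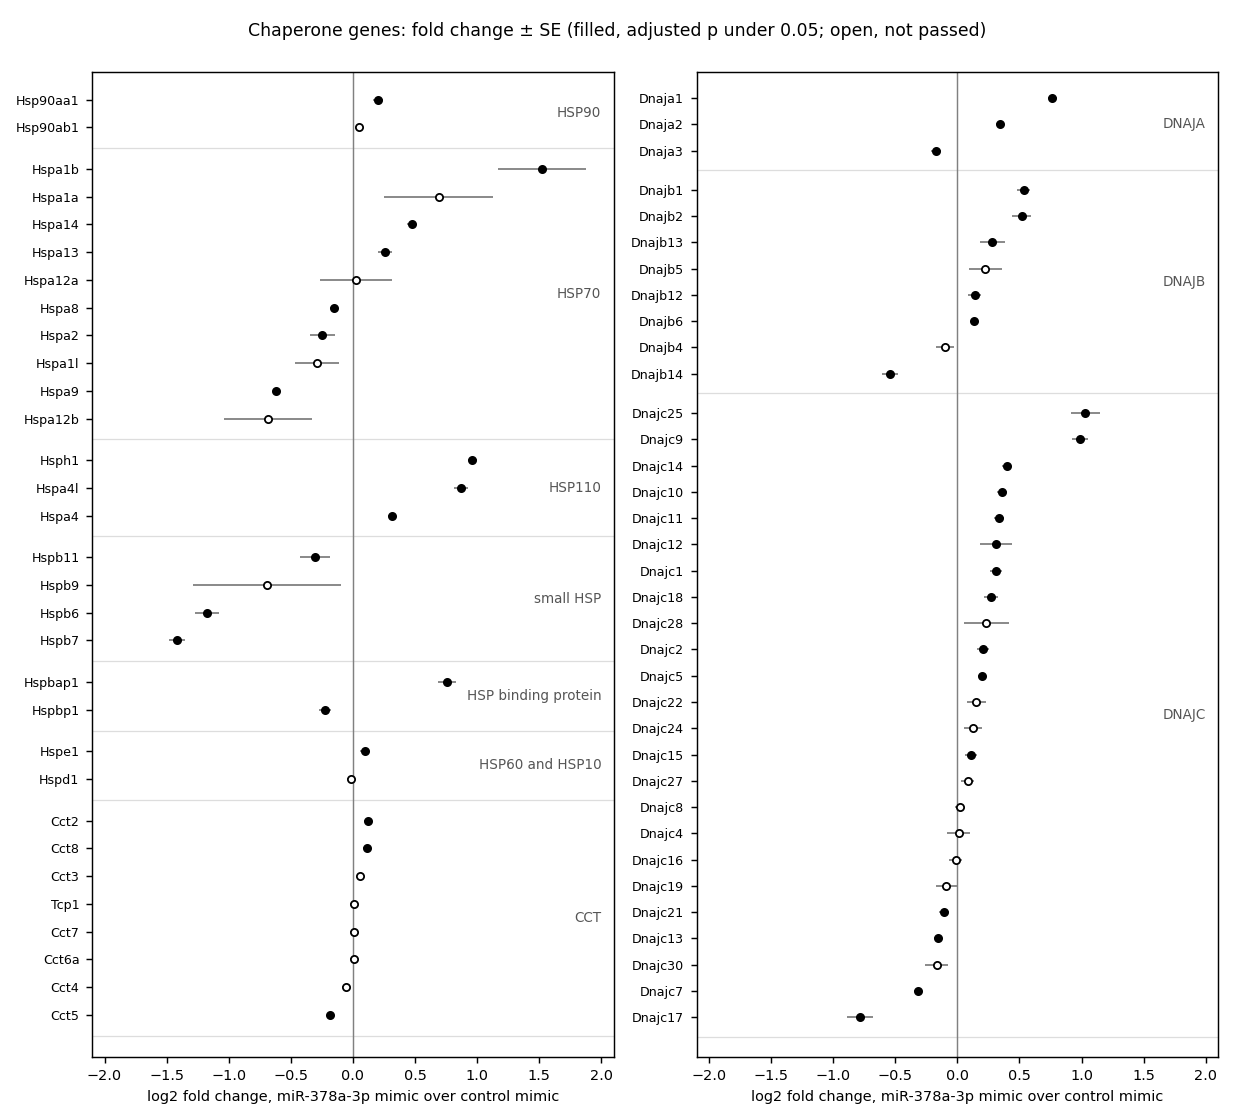
Log2 fold change (x axis, mimic over control, ± SE) of the tested genes reported by name, by family (y axis), with filled points for genes called at an adjusted p under 0.05 and open points for those that did not pass. All 3 HSP110 genes lie right of 0, the 3 called small HSP genes lie left of it, and the CCT genes stay between −0.18 and 0.12.

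The chaperone transcripts summed to 4468 ± 91.1 FPKM in the mimic libraries and 4163 ± 76.8 FPKM in the control libraries (SD, n = 5 each). As a share of all FPKM this was 1.48% ± 0.0329 in mimic and 1.41% ± 0.0271 in control libraries, and the groups overlapped. Hsp90ab1, Hspa8 and Hsp90aa1 alone made up 49.5% of the chaperone FPKM in mimic and 49.1% in control libraries. Among the 16 genes that averaged at least 50 FPKM, 6 were higher and 3 lower (56.2% called), while of all 903 genes at that level 248 were higher and 471 lower (79.6% called). Of the 28 chaperone genes at 5 to 50 FPKM, 53.6% were higher and 21.4% lower, against 41.7% and 34.6% of all 6655 genes there. Of the 23 tested under 5 FPKM, 34.8% were higher and 21.7% lower, against 24.3% and 26.7% of all 8358 genes there.

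HSP90 is the most abundant of these families. Hsp90ab1, its constitutive form, had 1099, 1118, 1120.4, 1165 and 1113 FPKM in the mimic libraries, against 1013, 1027, 1029, 1009 and 1017 FPKM in the control libraries. Every mimic library lay above every control library in FPKM, yet the edgeR fold change of 0.050 ± 0.0260 did not pass (adjusted p = 0.106), and with library totals it was 0.13 and did (adjusted p = 0.000176). Hsp90aa1, the form induced by stress, had 462, 489.8, 489, 507 and 505 FPKM in mimic libraries, against 399, 413, 359, 403 and 433 FPKM in control libraries. It rose by 0.20 ± 0.0399 on the log2 scale (adjusted p = 0.000431) with no overlap between the groups. The FPKM ratio of Hsp90aa1 to Hsp90ab1 was 0.437 in mimic and 0.394 in control libraries, and these ranges overlapped.

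Among the HSP70 genes the abundant constitutive and mitochondrial forms were lower, and the more weakly expressed Hspa14, Hspa13 and Hspa1b were higher. Hspa8 encodes the constitutive cytosolic HSC70, which also strips clathrin from coated vesicles. It had 571, 596, 600.0, 617 and 603 FPKM in mimic libraries and 627, 639.5, 627, 610.2 and 618 FPKM in control libraries. The groups overlapped at their edges, and the log2 fold change of −0.15 ± 0.0283 (adjusted p = 0.000198) was not called by limma on FPKM, where the change was −0.064 with either pseudocount. Hspa9, or mortalin, is the HSP70 of the mitochondrial matrix and pulls imported proteins through the inner membrane. Its levels were 125, 129, 135, 131 and 133 FPKM in the mimic libraries, against 190.4, 191, 182, 185 and 194 FPKM in the control libraries. Mimic libraries were all below control libraries by a wide gap, with a log2 fold change of −0.62 ± 0.0281 (adjusted p = 5.05e-11).

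Hspa14, whose product sits at the ribosome with that of Dnajc2 in human cells, had 17.2, 17.3, 17.3, 17.4 and 16.5 FPKM in mimic and 11.8, 11.7, 10.9, 11.4 and 12.3 FPKM in control libraries. No value of one group reached the other, and the log2 fold change was 0.47 ± 0.0353 (adjusted p = 1.42e-08). Its gene model shares 8264 bases with Gm45902 on the same strand, which was under 1 FPKM. Dnajc2 was higher too, at 16.99 ± 0.583 FPKM in mimic and 13.8 ± 1.14 FPKM in control libraries (log2 fold change 0.21, adjusted p = 0.00142). Hspa13, a short HSP70 of the endoplasmic reticulum that lacks the part which binds clients, had 7.25, 7.72, 7.96, 8.16 and 7.91 FPKM in mimic libraries and 6.20, 5.84, 5.35, 6.90 and 6.41 FPKM in control libraries. These groups did not overlap either, and the log2 fold change was 0.26 ± 0.0574 (adjusted p = 0.00108).

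The heat-inducible HSP70 genes, which are nearly silent in unstressed cells, were low in every library. Hspa1b had 0.873, 0.353, 0.251, 0.283 and 0.405 FPKM in mimic libraries (45 to 158 counts) and 0.123, 0.160, 0.172, 0.0771 and 0.165 FPKM in control libraries (12 to 35 counts), where 3 read pairs are about 12 counts. Mimic library 1 was the highest, and the log2 fold change of 1.52 ± 0.356 (adjusted p = 0.00158) was 1.11 without it (adjusted p = 0.00476) and 0.32 by limma on log2(FPKM + 1), a scale that understates low genes. Hspa1a, at 0.1001 ± 0.0522 FPKM in mimic and 0.0571 ± 0.0204 FPKM in control libraries, did not pass (adjusted p = 0.183). The 2 genes are known as near-identical copies, so the split of reads between them is uncertain, though their transcripts were not compared here. Upstream they are alike at 247 of the 250 bases, which overlap no annotated exon. Hspa2, a gene known from testis, had 1.37 FPKM in mimic and 1.53 FPKM in control libraries (log2 fold change −0.25, adjusted p = 0.0452), a call that 13 of the 19 alternative settings did not give. Hspa1l, Hspa12a and Hspa12b averaged at most 1.36 FPKM in a group and did not pass.

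All 3 HSP110 genes, which encode the exchange factors of HSP70 and work with it in pulling aggregates apart, were higher in the mimic libraries. Over all genes tested, 31.7% were higher. Hsph1 (chr5:149614287-149636376, GRCm38) had 21.3, 21.8, 21.4, 23.1 and 22.2 FPKM in mimic libraries, against 10.9, 10.6, 9.98, 10.2 and 11.3 FPKM in control libraries. Mimic libraries were all far above control libraries, and the log2 fold change was 0.96 ± 0.0343 (adjusted p = 3.77e-12). Hspa4l (chr3:40745382-40796103) had 5.96, 5.98, 5.46, 6.15 and 6.12 FPKM in mimic and 2.78, 2.93, 2.82, 3.26 and 3.46 FPKM in control libraries. Its groups did not overlap, and the log2 fold change was 0.87 ± 0.0571 (adjusted p = 3.20e-09). Hspa4, the most abundant of the 3, had 103, 109.8, 105, 111 and 109 FPKM in the mimic libraries, against 84.6, 82.5, 75.6, 78.9 and 84.7 FPKM in the control libraries. It rose by 0.31 ± 0.0330 on the log2 scale (adjusted p = 6.33e-07), also without overlap. The summed FPKM of the 3 genes was 0.227 ± 0.00399 of that of Hspa8 in mimic and 0.152 ± 0.00754 of it in control libraries (SD, n = 5 each), a ratio chosen after the values were seen.

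**Figure D2:**
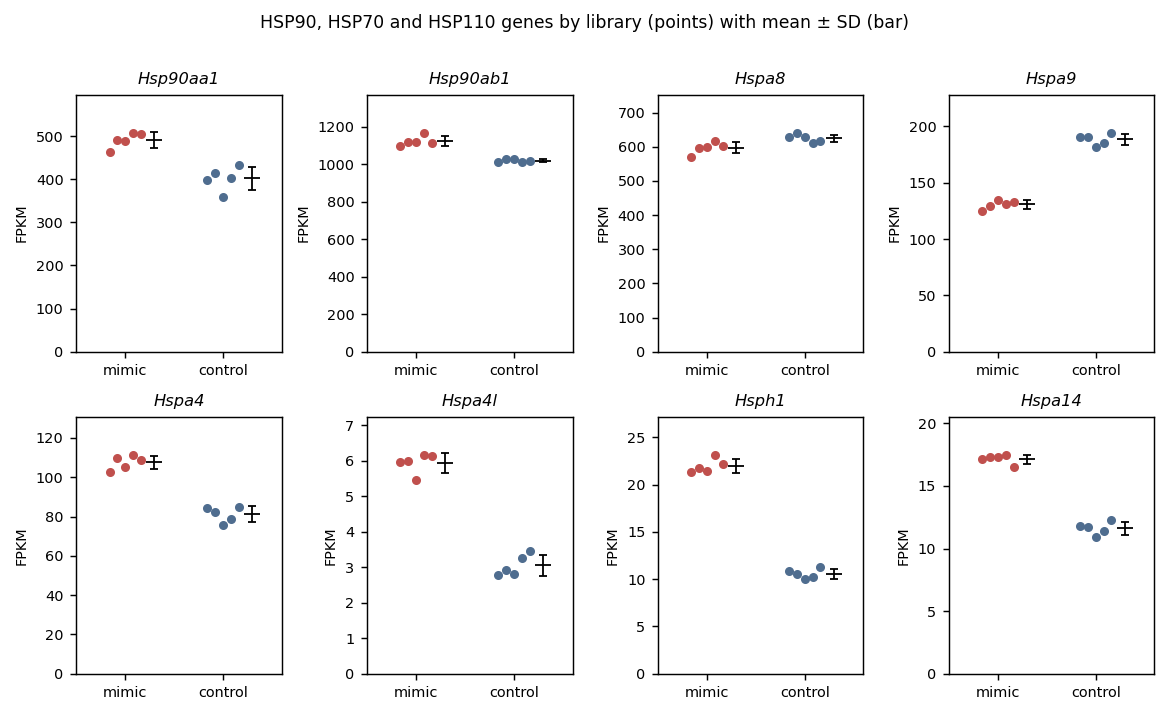
FPKM (y axes, each from 0) of 8 HSP genes in each of the 5 mimic (red, left) and 5 control (blue, right) libraries, with the mean ± SD beside the points. Hsph1, Hspa4l, Hspa4 and Hspa14 were higher in all mimic libraries, Hspa9 was lower in all of them, and the groups of Hspa8 overlapped.

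The mitochondrial chaperonin genes were not called lower. Hspd1 encodes HSP60, the ring that folds proteins in the mitochondrial matrix, and had 372, 389, 404, 398 and 399.9 FPKM in mimic libraries and 383, 373, 345, 372 and 395 FPKM in control libraries. The groups overlapped and the log2 fold change of −0.018 ± 0.0338 did not pass (adjusted p = 0.673), with the sign turned to 0.059 under library totals. Hspe1, for the HSP10 lid of that ring, had 73.5, 73.6, 68.9, 69.9 and 68.99 FPKM in mimic and 63.5, 62.2, 65.9, 58.7 and 61.8 FPKM in control libraries. Its groups did not overlap, but the change was small (0.10 ± 0.0377, 0.17 with library totals, adjusted p = 0.0384) and 8 of the 19 alternative settings did not call it. The Hspe1 model shares 112 bases with that of the more abundant Hspd1 on the other strand. The FPKM ratio of Hspa9 to Hspd1 was 0.333 ± 0.00221 in mimic libraries and 0.505 ± 0.0143 in control libraries (SD, n = 5 each), with no overlap, a ratio chosen after the values were seen. Dnaja3, the J-domain partner of Hspa9 in mitochondria, had 23.6, 25.3, 26.4, 24.97 and 27.8 FPKM in mimic libraries and 28.3, 27.9, 27.2, 26.2 and 25.98 FPKM in control libraries. These values overlapped, and the log2 fold change of −0.17 ± 0.0432 (adjusted p = 0.00279) was not called with library totals or by limma. Its model also shares 39789 bases with Coro7 on the other strand, and the sources used here do not say if counting took strand into account.

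Of 4 small HSP genes tested, 3 were lower (75.0%, background 31.5%) and 1 did not pass. Hspb7 (chr4:141420779-141425311), best known from heart and skeletal muscle, had 14.1, 13.5, 15.6, 12.98 and 14.4 FPKM in the mimic libraries, against 34.3, 36.5, 39.4, 36.1 and 30.8 FPKM in the control libraries. Every mimic library was far below the lowest control library, and the log2 fold change was −1.42 ± 0.0665 (adjusted p = 6.97e-11). Hspb6, or HSP20, known from smooth and heart muscle, had 2.46, 2.88, 2.18, 2.31 and 2.33 FPKM in mimic and 4.39, 5.53, 5.01, 5.01 and 5.99 FPKM in control libraries. Its groups were apart as well, with a log2 fold change of −1.18 ± 0.0987 (adjusted p = 5.26e-08), although 122 bases of its model overlap Proser3 on the other strand. Hspb11, whose product is a part of intraflagellar transport in cilia, had 2.03, 2.16, 2.13, 1.72 and 2.02 FPKM in mimic libraries and 2.11, 2.49, 2.28, 2.83 and 1.95 FPKM in control libraries. They overlapped, and the call (log2 fold change −0.30 ± 0.120, adjusted p = 0.0392) was not given by 10 of the 19 alternative settings. Hspb9 did not pass and lay near the floor, at 0 to 12 counts in mimic and 6 to 17 counts in control libraries. Hspb1, Hspb3 and Hspb8 were too low to test. Hspb8 was at 0 in all 5 control libraries and reached 1.06 FPKM (134 counts) in mimic library 1 alone, with at most 0.0144 FPKM in the other mimic libraries.

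A pair of genes are named for binding HSPs. Hspbap1, whose product binds the small HSP HSPB1, had 2.17, 2.46, 2.27, 2.47 and 2.15 FPKM in mimic libraries and 1.32, 1.23, 1.30, 1.11 and 1.44 FPKM in control libraries. It rose without overlap by 0.76 ± 0.0736 on the log2 scale (adjusted p = 2.70e-07). Hspbp1, an exchange factor of HSP70 unrelated to HSP110, had 30.3, 29.2, 29.04, 30.4 and 31.9 FPKM in mimic and 35.2, 33.5, 34.5, 29.3 and 32.95 FPKM in control libraries. Those groups overlapped, and the log2 fold change was −0.23 ± 0.0476 (adjusted p = 0.000666), or −0.15 with library totals.

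Of the 35 J-domain genes tested, 18 were higher (51.4%, background 31.7%) and 6 lower (17.1%, background 31.5%) in the mimic libraries, with a median log2 fold change of 0.15. The share called in either direction was 68.6%, against 63.2% of all genes. These backgrounds are over genes of every level, and of all genes at 5 to 50 FPKM 41.7% were higher and 34.6% lower. The main cytosolic partners of HSP70 were among the J-domain genes that rose. Dnaja2, the most abundant, had 88.2, 86.98, 90.5, 90.9 and 92.98 FPKM in mimic libraries, against 69.4, 66.3, 63.9, 65.6 and 68.6 FPKM in control libraries. Dnaja1 had 15.9, 16.3, 16.1, 15.4 and 15.7 FPKM in mimic libraries and 9.49, 8.47, 8.49, 8.29 and 9.22 FPKM in control libraries. Neither gene overlapped between the groups, and the log2 fold changes were 0.34 ± 0.0282 (adjusted p = 4.69e-08) for Dnaja2 and 0.76 ± 0.0378 (adjusted p = 1.27e-10) for Dnaja1. Dnajb1, the classic HSP40 that is induced by heat and acts with HSP110 on aggregates, had 18.1, 18.3, 16.03, 18.9 and 18.4 FPKM in mimic and 11.9, 12.4, 11.6, 10.4 and 11.8 FPKM in control libraries. The lowest mimic library stood above the highest control library, and Dnajb1 rose by 0.53 ± 0.0528 on the log2 scale (adjusted p = 3.35e-07).

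Dnajb2, known from neurons, where it delivers ubiquitinated clients to the proteasome, had 6.19, 5.68, 5.41, 5.23 and 5.40 FPKM in mimic libraries and 3.80, 3.87, 4.01, 3.14 and 3.44 FPKM in control libraries. It did not overlap between groups (log2 fold change 0.52 ± 0.0754, adjusted p = 2.08e-05). Dnajb6, which keeps polyglutamine proteins and amyloid-β from aggregating in the test tube, was at 19.3 ± 0.567 FPKM in mimic and 16.5 ± 0.518 FPKM in control libraries (log2 fold change 0.14, 0.21 with library totals, adjusted p = 0.000906). Dnajb12 and Dnajb14 encode sister proteins of the endoplasmic reticulum membrane that help to remove misfolded membrane proteins. Dnajb14 had 1.34, 1.39, 1.15, 1.25 and 1.36 FPKM in mimic and 1.69, 1.85, 1.65, 1.87 and 1.83 FPKM in control libraries, and it fell without overlap (−0.54 ± 0.0622, adjusted p = 1.66e-06, −0.27 by limma on log2(FPKM + 1)). Dnajb12 was at 14.8 ± 1.18 FPKM in mimic and 12.6 ± 0.211 FPKM in control libraries (log2 fold change 0.14, adjusted p = 0.0262), a call that 6 of the 19 alternative settings did not give.

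**Figure D3:**
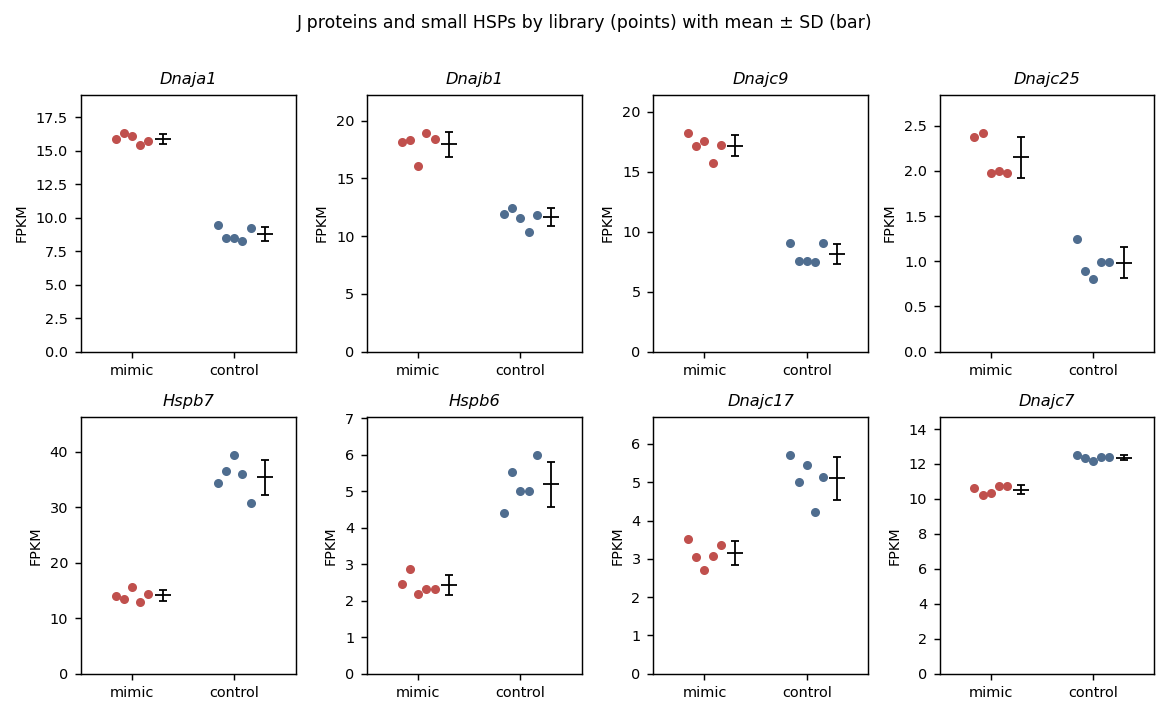
FPKM (y axes, each from 0) of 6 J-domain and 2 small HSP genes in each of the 5 mimic (red, left) and 5 control (blue, right) libraries, with the mean ± SD beside the points. Dnaja1, Dnajb1 and Dnajc9 were higher in all mimic libraries, as was Dnajc25, and Dnajc17, Dnajc7, Hspb7 and Hspb6 were lower in all of them.

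The DNAJC genes share the J domain and little else, and their products work in many places. Dnajc9 encodes a chaperone of newly made histones H3 and H4 and had 18.2, 17.1, 17.5, 15.8 and 17.2 FPKM in the mimic libraries, against 9.01, 7.54, 7.53, 7.48 and 9.07 FPKM in the control libraries. The groups were far apart, with a log2 fold change of 0.99 ± 0.0667 (adjusted p = 4.46e-09). Dnajc25, a membrane protein whose role is little known, had 2.38, 2.42, 1.97, 1.998 and 1.98 FPKM in mimic libraries and 1.25, 0.888, 0.806, 0.996 and 0.989 FPKM in control libraries. It rose by 1.03 ± 0.116 (adjusted p = 1.44e-06), and by 0.67 to 1.11 over the alternative settings, the lowest on the log2(FPKM + 1) scale. Dnajc14, a chaperone of the endoplasmic reticulum membrane, had 10.4, 10.3, 11.2, 10.8 and 10.2 FPKM in mimic and 7.34, 7.66, 7.59, 7.42 and 7.68 FPKM in control libraries. Its rise of 0.40 ± 0.0362 (adjusted p = 1.30e-07) was without overlap, but its model overlaps Ormdl2 on the other strand and Sarnp on the same one, so its reads are uncertain.

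Dnajc10, or ERdj5, cuts disulfide bonds of proteins that leave the endoplasmic reticulum for degradation. It had 28.3, 29.4, 28.2, 29.98 and 28.6 FPKM in mimic libraries and 22.4, 20.8, 19.1, 21.8 and 21.7 FPKM in control libraries, apart in all 10 libraries (log2 fold change 0.36 ± 0.0372, adjusted p = 5.41e-07). Dnajc5 encodes the cysteine string protein, which guards vesicle release and carries misfolded protein out of cells. Its levels were 30.7, 30.8, 30.9, 33.96 and 32.6 FPKM in mimic and 26.1, 26.4, 24.97, 25.7 and 26.8 FPKM in control libraries, and it rose by 0.20 ± 0.0313 (adjusted p = 4.22e-05) without overlap. Of the 9 genes that the authors' annotation places in the endoplasmic reticulum, 7 were higher (Dnajb12, Dnajc1, Dnajc10, Dnajc14, Dnajc18, Dnajc25 and Hspa13) and 2 lower (Dnajb14 and Hspbp1). That was 77.8% higher and 22.2% lower, against a background of 31.7% and 31.5%. The set is small and lacks the 5 genes of the endoplasmic reticulum that the rule leaves out. Of the tested genes annotated to mitochondria 35.3% were higher and 17.6% lower. The shares were 42.1% and 26.3% for cytosol or cytoplasm and 41.4% and 27.6% for the nucleus.

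Dnajc17, a splicing factor, had 3.52, 3.06, 2.71, 3.09 and 3.36 FPKM in mimic libraries and 5.70, 5.01, 5.44, 4.23 and 5.13 FPKM in control libraries. The log2 fold change was −0.79 ± 0.106 (adjusted p = 9.82e-06), with no overlap. Dnajc7, which binds both HSP70 and HSP90 through its TPR repeats, had 10.6, 10.2, 10.3, 10.7 and 10.8 FPKM in mimic and 12.5, 12.4, 12.1, 12.4 and 12.4 FPKM in control libraries. The groups were apart (−0.32 ± 0.0265, adjusted p = 4.43e-08, −0.21 by limma on log2(FPKM + 1)), though its model shares 8912 bases with Cnp on the other strand. Dnajc8, a part of the spliceosome, had 35.4, 38.6, 34.3, 34.4 and 35.8 FPKM in mimic and 34.2, 33.2, 31.5, 33.5 and 33.2 FPKM in control libraries. All mimic libraries were above all control libraries in FPKM, while the log2 fold change of 0.018 ± 0.0370 did not pass (adjusted p = 0.699).

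Among the remaining DNAJC genes, Dnajc11 of the mitochondrial membrane averaged 10.2 FPKM in mimic and 7.57 FPKM in control libraries (log2 fold change 0.34, adjusted p = 3.03e-06). Dnajc13, which acts on endosomes, averaged 16.97 FPKM in mimic and 17.8 FPKM in control libraries and was lower by edgeR (log2 fold change −0.16, −0.080 with library totals, adjusted p = 0.000107). Dnajc12, Dnajc15 and Dnajc21 were called only near the threshold, at adjusted p from 0.0304 to 0.0499, and each lost its call in at least 7 alternative settings. Dnajc4, Dnajc16, Dnajc19, Dnajc22, Dnajc24, Dnajc27, Dnajc28 and Dnajc30 did not pass, and neither did Dnajb4 and Dnajb5. Dnajb13, called higher (adjusted p = 0.0242), overlaps the far more abundant Ucp2 on the other strand and is uncertain. Dnaja4, Dnajb3, Dnajb7, Dnajb8 and Dnajc6 were too low to test, with at most 30 counts in a library.

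The FPKM ratio of Dnaja1 to Dnaja2 was 0.177 ± 0.00768 in mimic and 0.132 ± 0.00446 in control libraries (SD, n = 5 each), with no overlap, another ratio chosen after the values were seen.

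The CCT ring holds 8 different subunits in each layer, and its genes moved little. By edgeR 2 rose, 1 fell and 5 did not pass, a called share of 37.5% against a background of 63.2%. Their median log2 fold change was 0.0079, but 0.085 with library totals and −0.0058 with a filter of at least 1 FPKM, so no direction is given for the ring as a whole. Cct2 had 198, 198, 191, 207 and 199 FPKM in mimic libraries and 177, 173, 167, 168 and 174 FPKM in control libraries. Cct8 had 162, 165, 168, 176 and 173 FPKM in mimic and 147, 149, 140.5, 145 and 155 FPKM in control libraries. Neither overlapped between the groups, and the log2 fold changes were 0.12 ± 0.0267 (adjusted p = 0.00125) for Cct2 and 0.11 ± 0.0297 (adjusted p = 0.00467) for Cct8, which library totals moved to 0.19 for both. Cct5 had 159.9, 158, 158, 160.5 and 159.8 FPKM in the mimic libraries, against 173, 167, 176, 163 and 169.8 FPKM in the control libraries. It was lower in every mimic library, with a log2 fold change of −0.18 ± 0.0280 (adjusted p = 3.32e-05) that library totals moved to −0.11. The FPKM ratio of Cct2 to Cct5 was 1.25 in mimic and 1.01 in control libraries, again without overlap and chosen after the values were seen.

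For the 5 subunits that did not pass, the FPKM means leaned to the mimic libraries. Cct3 had 98.8, 102, 102, 105 and 104 FPKM in mimic libraries and 94.6, 94.4, 89.2, 90.3 and 92.98 FPKM in control libraries, which did not overlap (log2 fold change 0.058 ± 0.0268, adjusted p = 0.0706). Cct4 had 95.8, 93.9, 98.3, 102 and 103 FPKM in mimic and 96.5, 100.3, 89.5, 97.9 and 97.3 FPKM in control libraries, and Tcp1 had 102, 106, 107, 109 and 107 FPKM in mimic and 97.99, 101, 95.7, 96.8 and 105 FPKM in control libraries. Both overlapped between the groups, with log2 fold changes of −0.056 ± 0.0332 for Cct4 and 0.0087 ± 0.0294 for Tcp1. Cct6a had 97.8, 102, 101, 105 and 105 FPKM in mimic and 99.4, 98.9, 90.6, 92.8 and 95.7 FPKM in control libraries, with a log2 fold change of 0.0066 ± 0.0308. Cct7, the least abundant, had 58.5, 55.7, 57.1, 58.3 and 58.8 FPKM in mimic libraries and 56.03, 54.6, 53.9, 52.3 and 52.9 FPKM in control libraries, with a log2 fold change of 0.0070 ± 0.0277. Both of these overlapped too. With limma on log2(FPKM + 1), Cct3, Cct6a, Cct7 and Tcp1 were called higher, at 0.15, 0.096, 0.096 and 0.098, and the sign of Cct4 turned to 0.034 without a call. The summed FPKM of the 8 genes was 994 ± 21.8 in mimic and 926 ± 20.4 in control libraries (SD, n = 5 each).

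By level Cct7 was the lowest of the 8 tested subunits in every library of both groups. Cct2 was the highest in all mimic libraries, whereas in the control libraries Cct2 and Cct5 overlapped and Cct5 was above Cct2 in library 3. In the mimic libraries Cct8 stood above Cct5, and in the control libraries Cct5 stood above Cct8. These 2 genes did not overlap each other within either group. Tcp1, Cct3, Cct4 and Cct6a had means between 92.3 and 106 FPKM, and they overlapped one another within each group, except that Tcp1 was above Cct3 in all control libraries. Cct6b, the testis form of the Cct6 subunit, and Cct8l1 were too low to test.

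**Figure D4:**
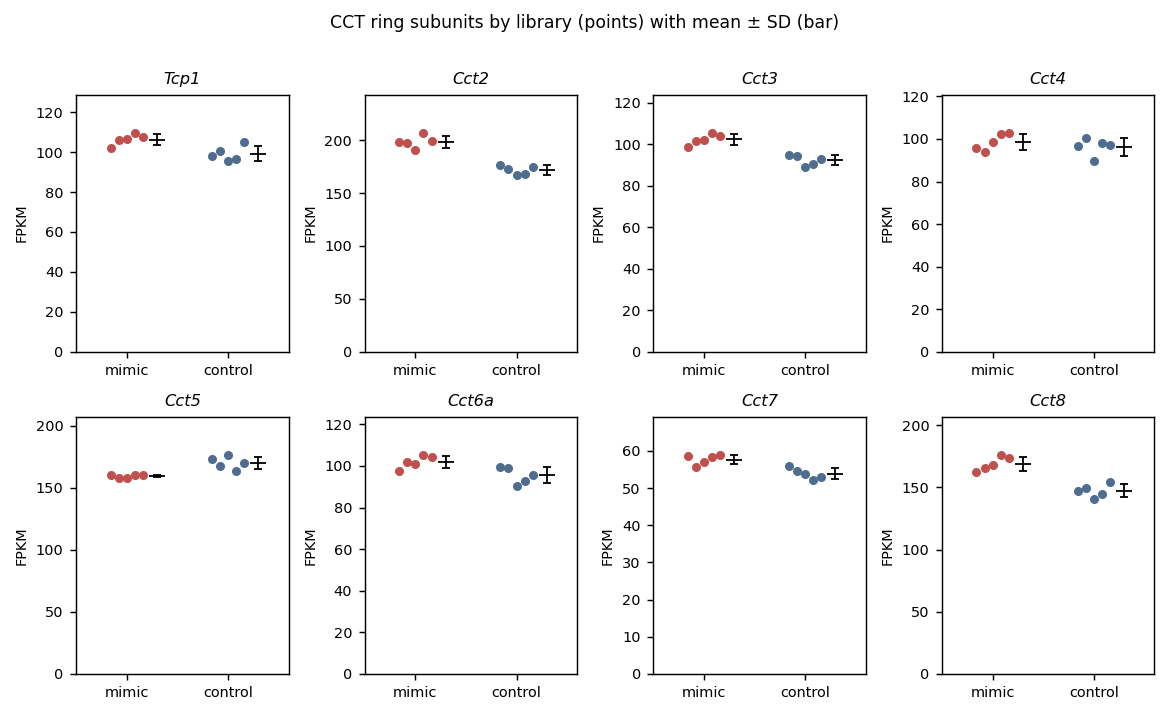
FPKM (y axes, each from 0) of the 8 CCT subunit genes in each of the 5 mimic (red, left) and 5 control (blue, right) libraries, with the mean ± SD beside the points. Cct2, Cct3 and Cct8 were higher and Cct5 was lower in all mimic libraries, and the other subunits overlapped between the groups.

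Genes that work with these families were counted from lists of partners, which hold no gene found by the rule. The HSP70 list thus lacks Hspbp1, which was lower, and the HSP110 genes, which were higher. Of 13 listed co-chaperones of HSP70, 9 were higher, 0 were lower and 4 did not pass by edgeR, with a median log2 fold change of 0.18. The called share was 69.2%, against a background of 63.2% (31.7% higher and 31.5% lower). None was lower at an unadjusted p under 0.05, or by DESeq2 or limma, and 1 was called lower without control library 5. The 9 included Bag3, which links HSP70 to small HSPs and autophagy (19.6 ± 0.840 FPKM in mimic and 13.1 ± 0.872 FPKM in control libraries, log2 fold change 0.49), and Stub1, the ubiquitin ligase CHIP (32.7 ± 1.69 FPKM in mimic and 23.3 ± 1.17 FPKM in control libraries, log2 fold change 0.40). Of 23 heat shock factors and HSP90 co-chaperones, 11 were higher, 5 were lower and 7 did not pass, with a median of 0.032 and a called share of 69.6%, near the same background. Hsf1, the heat shock factor itself, had 8.82, 9.09, 7.94, 8.78 and 8.99 FPKM in mimic and 6.07, 6.19, 6.28, 5.81 and 6.54 FPKM in control libraries. No control library reached a mimic library, and Hsf1 rose by 0.41 ± 0.0440 (adjusted p = 9.15e-07). Hsf2, a second factor, also rose, at 2.42 FPKM in mimic and 1.69 FPKM in control libraries (log2 fold change 0.43), while Hsf4 fell, at 1.56 FPKM in mimic and 3.20 FPKM in control libraries (log2 fold change −1.12). Ahsa1, the activator of the HSP90 ATPase, rose as well, at 51.3 ± 1.18 FPKM in mimic and 39.02 ± 1.68 FPKM in control libraries (log2 fold change 0.30, adjusted p = 6.19e-07).

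The partners of CCT went both ways. Of 11 prefoldin and cofactor genes 2 were higher, 2 lower and 7 did not pass (36.4% called, background 63.2%). Pdcl3, a phosducin-like cofactor of CCT, fell to 13.5 ± 0.621 FPKM in mimic libraries, against 21.05 ± 0.483 FPKM in control libraries (log2 fold change −0.73 ± 0.0370, adjusted p = 1.66e-10). Of 14 actin, tubulin and tubulin cofactor genes 6 were higher, 5 lower and 3 did not pass (78.6% called, background 63.2%). Tubb4b had 287 ± 12.02 FPKM in mimic and 118 ± 3.98 FPKM in control libraries, the largest rise of this list (log2 fold change 1.20 ± 0.0339, adjusted p = 3.69e-13). Tuba1c, Tubb6 and Tubb2a rose by 0.82, 0.71 and 0.99, while Actb and Actg1 fell, with log2 fold changes of −0.56 and −0.65. Tuba1a and Tuba1b were the other genes called higher (0.10 and 0.25). The other genes called lower were Tubb5 (−0.084) and the tubulin cofactors Tbca (−0.13) and Tbcb (−0.24), so tubulin genes went both ways. Actin and tubulin genes have close copies, so reads between them are uncertain. Trap1, the HSP90 of mitochondria, fell to 91.9 ± 1.85 FPKM in mimic libraries, against 119 ± 2.62 FPKM in control libraries (log2 fold change −0.46 ± 0.0266, adjusted p = 7.22e-10), and Clpb, a disaggregase of mitochondria, had a log2 fold change of −0.22. They are the 2 tested genes of a list of 4 that also holds the crystallins Cryab, too low to test, and Cryaa, not analysed here.

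**Figure D5:**
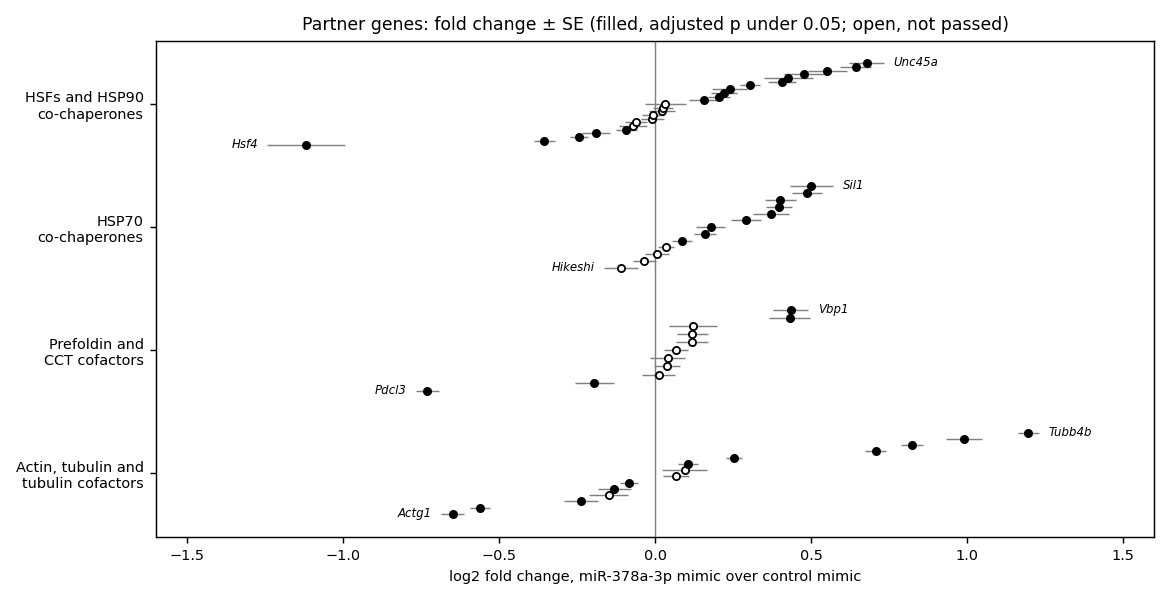
Log2 fold change (x axis, mimic over control, ± SE) of the genes of 4 partner lists (y axis), filled where the adjusted p was under 0.05, with the lowest and highest gene of each list named. No gene of the HSP70 co-chaperone list was called lower, and the actin and tubulin list runs from −0.65 (Actg1) to 1.20 (Tubb4b).

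The 5 genes of the endoplasmic reticulum that the rule leaves out were mixed, with 3 called higher and 1 lower. That was 80.0% called, against a background of 63.2% (31.7% higher and 31.5% lower). Hspa5, or BiP, had 186 ± 5.34 FPKM in mimic and 169 ± 3.66 FPKM in control libraries and did not pass (log2 fold change 0.045, adjusted p = 0.157). Hsp90b1 was lower (109 FPKM in mimic and 139.7 FPKM in control libraries, log2 fold change −0.45), and Dnajb11, Dnajb9 and Dnajc3 were higher (log2 fold changes 0.51, 0.27 and 0.17).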

How the data were processed

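Poly(A) RNA was made into libraries by a dUTP method and sequenced as read pairs, per the labels' protocols. The authors deposited 1 table, which per the file headers gives each gene's expected count and FPKM in every library. Per the submitters' processing notes, edgeR, DESeq2, StringTie 2.1.6, HISAT2 2.2.1 and cutadapt 1.9 were used, with no role given. The notes name the genome build GRCm39, but of the 28163 genes shared with GENCODE M21, a GRCm38 annotation, 27222 (96.7%) overlap it at the deposited coordinates, so coordinates are given as GRCm38. The expected counts were whole numbers as deposited. Counts of 4 and 8 were held by 933.5 and 406.2 genes in the mean library, against 485.6, 305.8, 274.9 and 201.5 for counts of 3, 5, 7 and 9. A read pair was therefore taken as about 4 counts, and the floor of 3 read pairs is 12 counts, or 0.184 to 0.246 CPM. Floors cover counting error only. All 20 value columns matched a library by name.

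Here, edgeR 4.0.16 (R 4.3.3) was run on the counts of all genes with filterByExpr, TMM scaling and the quasi-likelihood test, mimic over control with no covariate. The standard error is the size of the log2 fold change divided by the square root of F. The check of pairing found correlations of same-numbered libraries of −0.0087 to 0.062, so no pairing by number was seen. With so few libraries this cannot exclude a pairing. The chaperone members, gene lists and tests were chosen with earlier results of these data known. Values per library are given for HSP and CCT genes of at least 5 FPKM, the 8 largest rises and 8 largest falls among called small HSP, HSP binding and DNAJ genes of at least 1 FPKM, and the 3 DNAJ genes of highest level. Of the partner lists, Hsf1 and the 8 genes of smallest p are named by rule, and the other partners named were picked after their values were seen. The 19 alternatives were DESeq2 1.42.0 and its size factors, library totals, other filters, limma 3.58.1 on log2 FPKM with pseudocounts of 1 and 0.1, counts divided by 4, a replicate block, and the fit with each library dropped in turn. The script for the fit was tested on simulated data. Promoter sequences are RefSeq's (GRCm38.p6), joined by symbol with every listed start. Sites for the microRNA were not analysed here, and neither were protein sequences. A chaperone gene that stays in the counts is not reported here by name.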

Additional observations from a re-analysis of the deposited data

Results flagged for a closer look

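In 76 groups of 5 values (38 chaperone genes in mimic and in control libraries), 2 held a library far from the other 4, and chance gives about 1 in 20. Both were low values of mimic library 3. Hspa4l had 5.46 FPKM there, against 5.46 to 6.15 FPKM over all mimic libraries and 2.78 to 3.46 FPKM over the control libraries. Dnajb1 had 16.03 FPKM there, where mimic libraries spanned 16.03 to 18.9 FPKM and control libraries 10.4 to 12.4 FPKM. The cause was not tested, and both genes were called higher without that library.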

How the results depend on the processing

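Of 43 chaperone genes called, 33 kept the call in every alternative that tested them (all 19, or 18 for Hspa1b, which the filter of at least 1 FPKM removed), and Dnaja3, Dnajb12, Dnajb13, Dnajc12, Dnajc15, Dnajc21, Hspa2, Hspa8, Hspb11 and Hspe1 lost the call under some. Over 893 values of 47 named genes, 822 kept direction and side of the threshold, 23 lost a call, 20 gained one and 28 turned sign, all at changes near 0. With library totals, the medians of all chaperone, CCT, HSP and DNAJ genes were 0.19, 0.085, 0.12 and 0.23, and the signs of Cct4 (0.021) and Hspd1 (0.059) turned. With limma at a pseudocount of 0.1, the medians were 0.20, 0.098, 0.11 and 0.24, 9 chaperone genes were lower, and Cct4 (0.034) and Hspd1 (0.073) turned. At a pseudocount of 1, the medians of all chaperone, CCT and DNAJ genes were 0.15, 0.097 and 0.21, 9 were lower, and Cct4 (0.034) and Hspd1 (0.073) turned. A filter of FPKM of at least 1 gave medians of 0.089 (all), −0.0058 (CCT) and 0.13 (DNAJ), with Cct6a at −0.0071, Cct7 at −0.0066 and Tcp1 at −0.0050. No filter gave 0.13 (all), 0.089 (HSP) and 0.21 (DNAJ). Leaving out 1 library gave medians of 0.083 to 0.10 (all), −0.011 to 0.024 (CCT), −0.0013 to 0.074 (HSP) and 0.13 to 0.17 (DNAJ), 24 to 28 genes higher and 12 to 14 lower, with Cct6a at −0.025 to 0.024, Cct7 at −0.024 to 0.017, Tcp1 at −0.016 to 0.025, Dnajc8 at −0.014 to 0.032 and Hspd1 at −0.057 to 0.0036. The cause was not tested. The replicate block gave 9768 called genes and 27 higher and 11 lower chaperone genes, with a median of 0.11, and 2 of 5 mimic libraries correlated best with the control of their number. Sites for the microRNA were not run. Counts near 12 limit Hspa1a, Hspa1b, Hspb9 and the untested genes.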
